A study of Mus musculus with 24 samples.

Results

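Histone H3 monomethylated at lysine 4 (H3K4me1) was mapped in mouse bone marrow cells, and the regions described here are the wide domains of this mark in untreated cells: the peaks of the untreated H3K4me1 list that span 10000 bp or more from start to end. The rule selected 3456 of 57750 untreated peaks (5.98%). They held 64.1 Mb, which was 35.0% of the 183 Mb under untreated H3K4me1 peaks. The domains were selected on their measured width in the untreated library alone, so width and the untreated H3K4me1 signal are described and not tested. The narrowest domains inside the limit spanned 10001, 10003 and 10005 bp, and the widest peaks just outside it 9997, 9991 and 9991 bp.

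HOXA9, a homeobox factor that keeps myeloid progenitors dividing, had been used to immortalize the bone marrow cells, and every library used for the histone marks, PU.1, Runx1 and RNA came from cells with a vector for IDH1 R132H, a mutant isocitrate dehydrogenase that makes 2-hydroxyglutarate. They grew with murine IL-3, human IL-6 and murine SCF. One condition was untreated. The other received 0.345 mM vitamin C at 0, 24 and again at 48 h before harvest at 72 h. The labels give no harvest time for untreated cells, nor whether the cells came from 1 clone. Region lists of cytosine methylation came from bisulfite sequencing of the whole genome (WGBS), from pulldown of methylcytosine (MeDIP) and from pulldown of hydroxymethylcytosine (hMeDIP), and 1 MeDIP list was attached to untreated cells with an IDH1 wt vector. Of 24 samples, 18 had files, each group was 1 library, and no difference below has a replicate check or a test.

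H3K4me1 is written by the KMT2C and KMT2D methyltransferases and marks enhancers and the flanks of promoters. Acetylation of H3 lysine 27 (H3K27ac), written by EP300 and CREBBP, marks the enhancers and promoters that are active, and H3K4me3 marks promoters. PU.1, encoded by Spi1, is an ETS factor that opens and holds enhancers in myeloid cells and binds a purine-rich element with a GGAA core. Broad stretches of H3K4me1 in blood progenitors often lie over genes of lineage regulators. TET dioxygenases, which oxidise methylated cytosine, work at enhancers and need 2-oxoglutarate and reduced iron, which vitamin C helps to maintain.

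RNA-seq held 86804487 counts untreated and 111453443 with vitamin C. Of the myeloid progenitor markers, 5 of 5 were at 1 RPKM (reads scaled to gene length and library depth) or more untreated, and none of 5 B cell, 5 T cell or 4 fibroblast markers were. The mast cell and basophil markers summed to 2112 RPKM untreated and 2850 with vitamin C, and the myeloid progenitor markers to 3497 and 1657. Hba-a1, the alpha globin gene, was at 0.135 and 4.12 RPKM, and Hbb-bs, a beta globin gene, at 340 and 380.

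Promoters inside the domains give a view of the sequence that PU.1 met there. RefSeq promoter windows of 300 bases (GRCm38.p6, from 250 bases before a start site to 50 after) were available for 32851 start sites, of which 940 lay in a wide domain. Each was searched on both strands for the PU.1 element GAGGAAGT (reverse complement ACTTCCTC). It stood in 3.20% of all windows and in 4.36% of those with a start site in a domain. Of the 197 windows in a domain that carried an untreated PU.1 peak, 15.2% held it, against 10.8% of 3516 windows with a PU.1 peak outside the domains and 1.48% of 743 windows in a domain without a PU.1 peak. A match is a string of letters and not a shown binding site. In 16 measured genes the start site lay in a domain, an untreated PU.1 peak overlapped the window and the element stood in the 250 bases upstream. The PU.1 peak was listed in both libraries at 12 of the 16 and untreated only at 4. Of the 16, 6 are shown, chosen after their values were seen: 3 whose PU.1 peak was listed untreated only (Elane, Ifi47, Btla) and 3 whose PU.1 peak was listed in both libraries (Spp1, Pirb, Havcr2). Each sequence is the 250 bases before the start site, read 5′ to 3′ on the strand of the gene, with the element in capitals.
Elane, chr10:79886062-79886311, + strand: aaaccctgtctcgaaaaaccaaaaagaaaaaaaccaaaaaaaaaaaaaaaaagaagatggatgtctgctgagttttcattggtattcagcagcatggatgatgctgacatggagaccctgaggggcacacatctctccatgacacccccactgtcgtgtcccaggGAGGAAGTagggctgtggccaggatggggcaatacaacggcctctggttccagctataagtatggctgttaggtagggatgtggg
Ifi47, chr11:49076337-49076586, + strand: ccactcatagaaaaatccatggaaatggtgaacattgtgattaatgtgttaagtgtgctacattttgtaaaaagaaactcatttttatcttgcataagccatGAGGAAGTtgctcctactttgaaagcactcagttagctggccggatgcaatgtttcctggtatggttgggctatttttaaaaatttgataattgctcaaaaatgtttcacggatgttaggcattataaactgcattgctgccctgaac
Btla, chr16:45224087-45224336, + strand: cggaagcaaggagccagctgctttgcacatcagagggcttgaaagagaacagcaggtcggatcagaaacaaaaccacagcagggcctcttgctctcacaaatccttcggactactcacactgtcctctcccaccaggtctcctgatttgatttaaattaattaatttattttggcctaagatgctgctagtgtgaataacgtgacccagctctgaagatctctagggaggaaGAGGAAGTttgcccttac
Spp1, chr5:104434861-104435110, + strand: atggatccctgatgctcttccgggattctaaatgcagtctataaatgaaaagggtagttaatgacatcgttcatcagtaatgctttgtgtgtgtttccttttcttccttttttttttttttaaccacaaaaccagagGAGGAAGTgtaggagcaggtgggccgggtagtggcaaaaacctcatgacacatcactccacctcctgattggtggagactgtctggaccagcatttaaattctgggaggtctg
Pirb, chr7:3720383-3720632, - strand: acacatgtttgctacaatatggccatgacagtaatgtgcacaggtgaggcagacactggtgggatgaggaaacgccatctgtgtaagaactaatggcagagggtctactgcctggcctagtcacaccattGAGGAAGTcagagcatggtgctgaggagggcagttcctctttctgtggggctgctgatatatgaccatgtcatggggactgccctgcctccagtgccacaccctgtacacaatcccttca
Havcr2, chr11:46454681-46454930, + strand: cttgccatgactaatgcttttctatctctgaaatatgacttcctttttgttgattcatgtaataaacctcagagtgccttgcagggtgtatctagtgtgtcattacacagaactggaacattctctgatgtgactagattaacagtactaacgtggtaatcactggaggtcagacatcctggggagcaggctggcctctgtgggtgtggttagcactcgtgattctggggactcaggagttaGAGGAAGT

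Elane encodes neutrophil elastase, a primary granule protease. Its domain (chr10:79882541-79894733) had no vitamin C H3K4me1 peak, and its RPKM was 47.5 untreated and 38.6 with vitamin C. Ifi47, an interferon-induced GTPase gene, lay in a domain that also had no vitamin C H3K4me1 peak, and its RPKM was 21.0 and 22.1. Btla, a lymphocyte inhibitory receptor gene, lay in a domain that was 90.3% covered, and its RPKM was 11.7 and 4.55. The element began 85, 148 and 18 bases before these start sites. Among the 3 promoters with PU.1 in both libraries, Pirb, an inhibitory immunoglobulin-like receptor gene, lay in a domain with no vitamin C H3K4me1 peak and was at 39.1 and 53.0 RPKM. Havcr2, which encodes the receptor TIM-3, lay in a domain covered over 20.2% and was at 26.8 and 37.9 RPKM. Spp1, which encodes osteopontin, lay in a domain covered over 64.6% and was at 15.2 and 93.9 RPKM. Of the 6 genes, Btla was past 2-fold lower and Spp1 past 2-fold higher with vitamin C, and each PU.1 pattern included domains with and without a vitamin C H3K4me1 peak.

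The domains had a median width of 14.7 kb, 919 reached 20 kb, 88 reached 50 kb and 10 reached 100 kb. The widest spanned 183231 bp over Etv6 (chr6:134040166-134223396), an ETS repressor gene needed by blood stem cells. Next came domains over Cux1 (155126 bp), a homeodomain factor gene, and Ankrd11 (143063 bp), a chromatin regulator gene. The other 7 of the 10 widest lay over Fut8, Msi2, Auts2 with 2 domains, Atp8b4, Mgat5 and Gng12. The domains were spread over all 19 autosomes and X. Most lay in genes: 2743 (79.4%) overlapped the span of a protein-coding gene, against 55.5% of the narrower untreated peaks, and 75.8% of their length was in genes. A start site lay in 674 domains (19.5%), against 5.05% of the narrower peaks. Per Mb the domains held 14.7 start sites and the narrower peaks 27.6. The median distance to the nearest start site was 4648 bp from a domain and 19572 bp from a narrower peak. RefSeq hairpins of microRNAs lay in the domains in 46 of 1005 cases.

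Vitamin C H3K4me1 peaks covered 31.2 Mb of the domains, which was 48.7% of their length. Coverage differed widely between domains. No vitamin C peak touched 1227 domains (35.5%, exact Clopper-Pearson 95% interval 33.9 to 37.1%, counting error only), where the same held for 58.9% of all untreated peaks. At the other end 1010 domains (29.2%) were covered over 90% or more, where 16.1% of all untreated peaks were, and 249 of them were covered in full. Between these lay 1219 domains covered in part, 529 over less than 50% and 690 over 50 to 90%. Where vitamin C peaks were present, 1497 domains held 1 and 732 held 2 to 7 of them.

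**Figure D1:**
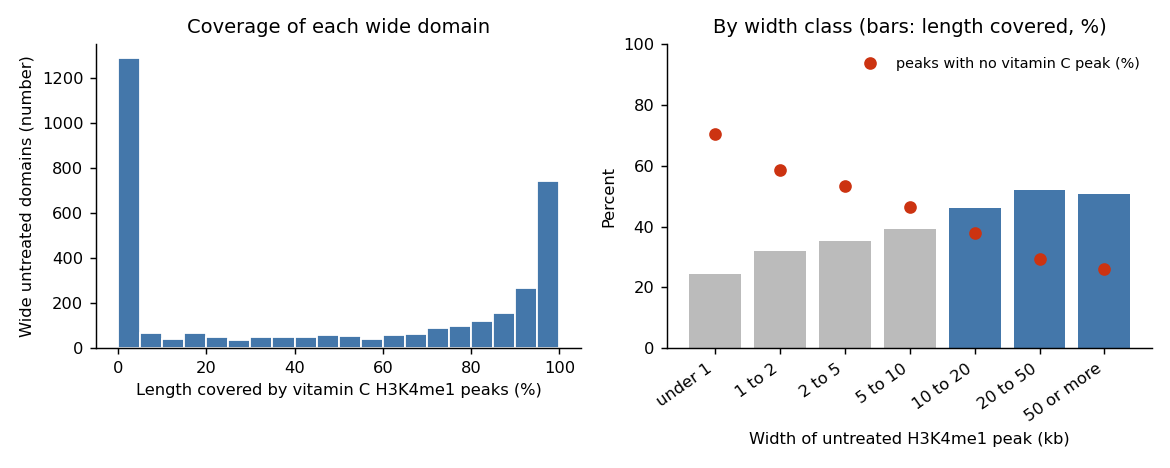
Left, number of the 3456 wide untreated H3K4me1 domains by the percent of their length under vitamin C H3K4me1 peaks, in steps of 5%; right, percent of length covered (bars, wide domains in blue) and percent of peaks with no vitamin C peak (points) by width class of the untreated peak in kb. Most domains sit at an end of the left axis, and coverage on the right runs from 24.5% under 1 kb to 46.1, 52.0 and 50.8% in the 3 classes of wide domains.

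Coverage was higher in wide domains than in narrower peaks. It was 24.5% of length in peaks under 1 kb, 32.1% from 1 to 2 kb, 35.2% from 2 to 5 kb and 39.2% from 5 to 10 kb. In domains of 10 to 20 kb it was 46.1%, in those of 20 to 50 kb 52.0% and in those of 50 kb or more 50.8%. The share with no vitamin C peak fell over the same classes, from 70.4% to 26.1%. Among the domains themselves the rank correlation of width with coverage was low (Spearman rho 0.10 over 3456 domains, which share both libraries).

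The vitamin C H3K4me1 list was shorter and weaker as a whole, and those values stand beside every coverage result. It held 45657 peaks over 108 Mb, and 1624 of them were 10000 bp or wider. The authors give a p or q value per peak, and 54.4% of untreated peaks were at 1e-10 or less against 29.0% of vitamin C peaks. For peaks of 10000 bp or more the shares were 37.7% and 5.11%. Domains with a stronger listed value untreated were covered more: 55.3% of the length of the 746 domains at 1e-12 or less, and 37.1% of the 456 domains above 1e-06. With only vitamin C peaks at 1e-10 or less counted, coverage was 3.14% of the length. The part of this difference between the lists in the coverage was not tested. Seen from the vitamin C side, 85.2% of the length of its wide peaks lay under untreated peaks, and 223 of the 1624 (13.7%) met no untreated peak.

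The domains covered most and least were ranked with ties set by width. The 5 with the highest coverage, all at 100%, lay over Cux1, Gng12, Ptpre and Cdk6, which had 2 such domains (chr5:3346137-3435753 and chr5:3437396-3517315). Cdk6 encodes the cyclin-dependent kinase that drives progenitors into the cell cycle. The 5 widest without any vitamin C peak lay over Fut8 (131341 bp), Mgat5 (109144 bp), Tbxas1 and Hipk2 (98089 bp), Zfp608 (86514 bp) and Susd6 (75571 bp). Fut8 and Mgat5 encode glycosyltransferases, and Tbxas1 encodes thromboxane synthase. Neighbours were alike in most pairs. Of 364 pairs of domains within 5 kb of each other, 55 had no vitamin C peak in either and 191 had one in both. In the other 118 pairs a domain with a vitamin C peak stood next to one without. Over all domains 35.5% had no vitamin C peak, and how many mixed pairs unrelated domains would give was not tested.

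Chromosome X stood apart. It held 25 of the domains, 20 of them (80.0%) had no vitamin C peak, and coverage was 10.5% of length, where the autosomes ran from 42.8 to 56.0%. The vitamin C list had 399 H3K4me1 peaks on X against 888 untreated, or 44.9%, where the autosomes ran from 74.6 to 84.7%. H3K27ac on X showed a smaller gap, with 30.7% of the length of these domains untreated and 27.8% with vitamin C. No autosome fell by as much, and the autosomes ran from 21.8 to 27.4% untreated and from 21.6 to 28.2% with vitamin C. The H3K27ac list held 996 peaks on X untreated and 884 with vitamin C, where the whole list held 36953 and 35970. Without X, coverage of all domains was 48.9%.

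H3K27ac in the domains was nearly equal in the 2 libraries. Its peaks overlapped 3087 domains untreated (89.3%) and 3046 with vitamin C (88.1%), and covered 24.1% and 24.3% of the length. Narrower peaks had 12.32% and 11.96%. The change in share per domain, vitamin C minus untreated, had a median of 0, and 3167 domains (91.6%) stayed within 10 percentage points. Of 9014 untreated H3K27ac peaks in the domains, 88.0% met a vitamin C H3K27ac peak (95% interval 87.3 to 88.7%), close to the 86.6% of the whole list. The rank correlation of the share between the libraries was 0.96 over the domains.

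Domains with no vitamin C H3K4me1 peak still held H3K27ac peaks. In the 1227 domains with no vitamin C H3K4me1 peak, H3K27ac covered 25.1% of the length untreated and 25.4% with vitamin C. In the 1010 domains covered over 90% or more, it covered 27.8% and 29.0%. Of the H3K27ac peaks in these 2 classes, 88.7% and 89.3% were matched with vitamin C. In 116 uncovered domains H3K27ac lay over 50% or more of the length in both libraries. The rank correlation between coverage and the change in H3K27ac share was 0.06.

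**Figure D2:**
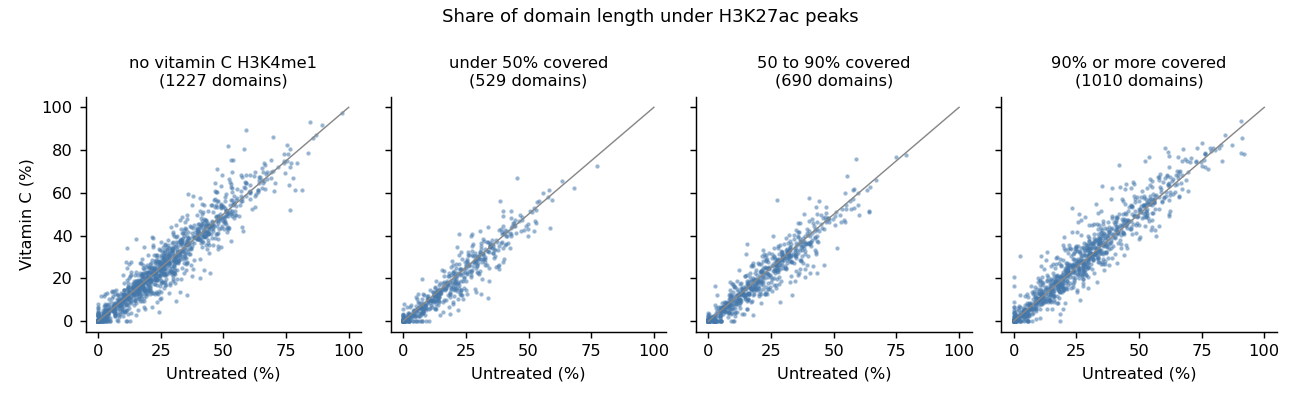
Percent of each wide domain's length under H3K27ac peaks, untreated (horizontal axis) against vitamin C (vertical axis), 1 point per domain, in 4 panels by how much of the domain vitamin C H3K4me1 peaks cover. The points follow the line of equal values in all 4 panels, including the 1227 domains with no vitamin C H3K4me1 peak.

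Few domains moved by 20 percentage points or more in H3K27ac: 28 went up and 8 went down. By coverage, 15 of those that went up were among the 1010 domains covered over 90% or more (1.49%). Another 10 were among the 1227 uncovered ones (0.815%), where 0.810% of all domains went up. The largest gains, named after their values were seen, lay over Glipr1 (41.9% to 73.2%, chr10:111980800-111994121, 100% covered) and Susd1 (58.9% to 89.2%, chr4:59439297-59462269, uncovered). The RPKM of Glipr1 was 248 untreated and 267 with vitamin C, and that of Susd1 26.5 and 26.2. Of the 8 domains that went down, 5 were uncovered, which was 0.407% of uncovered domains, where 0.231% of all domains went down. The largest losses lay over 4932414N04Rik (76.7% to 52.1%, uncovered) and, 372780 bp away, nearest to Khdrbs3 (35.4% to 12.4%, uncovered).

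H3K4me3 behaved alike. It overlapped 94.2% of domains untreated and 95.3% with vitamin C, although 19.5% held a start site, and covered 18.7% and 18.5% of the length. In uncovered domains the shares were 19.7% and 19.7%, and in domains covered over 90% or more 21.1% and 21.1%.

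Coverage was also compared between parts of the same domains. Over 1219 domains that were covered in part, vitamin C H3K4me1 peaks covered 58.2% of the length under untreated H3K27ac peaks and 49.0% of the rest. For untreated PU.1 peaks the shares were 58.0% and 50.5%, and for WGBS regions of the deMR list 60.3% and 50.8%. For hMeDIP iHR regions they were 51.1% and 50.8%.

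PU.1 peaks in the domains were listed less often with vitamin C. The domains overlapped 7488 untreated PU.1 peaks and 3671 with vitamin C, or 117 and 57.3 per Mb. Narrower untreated H3K4me1 peaks overlapped 138 and 58.9 per Mb, so PU.1 density was not higher in the domains. An overlap of 1 bp counted, which raises the density of narrow peaks. Untreated, 2904 domains (84.0%) held at least 1 and 552 held none. With vitamin C 2091 (60.5%) held at least 1, and 833 of the 2904 had none left. Vitamin C listed fewer PU.1 peaks in 2154 domains, the same number in 1238 and more in 64. The whole untreated PU.1 list held 61611 peaks and the vitamin C list 23522, so the list as a whole was shorter as well.

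A larger part of PU.1 peaks was kept inside the domains than over the whole list. Of untreated PU.1 peaks in the domains 46.4% (95% interval 45.2 to 47.5%) met a vitamin C peak, against 41.2% (40.5 to 42.0%) in narrower H3K4me1 peaks and 36.1% of the whole list. The intervals cover counting error only. The authors' score was above the 75th percentile of the untreated list for 35.0% of the peaks in domains and 33.5% of those in narrower peaks. The part of peak strength in this difference was not tested. The shares were close at both ends of coverage: 47.9% of PU.1 peaks were kept in uncovered domains and 47.4% in domains covered over 90% or more. PU.1 density was 122 per Mb untreated and 61.1 with vitamin C in uncovered domains, and 121 and 60.8 in domains covered over 90% or more.

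The 5 domains with most untreated PU.1 peaks lay over Etv6, Erg, Fli1 and Msi2 and near Zfp36l2. Etv6 held 19 untreated and 11 with vitamin C. Erg (chr16:95401491-95455426), an ETS factor gene of blood stem cells, held 14 and 3. Fli1 (chr9:32469641-32539667), its close relative, held 14 and 5. A domain 11562 bp from Zfp36l2, which encodes an RNA-binding protein that destabilises messages, held 14 and 7 (chr17:84112304-84172361). Msi2, a stem cell RNA-binding protein gene, had a domain with 13 and 5. Coverage of these 5 domains ran from 0% over Erg and Fli1 to 95.8% near Zfp36l2.

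**Figure D3:**
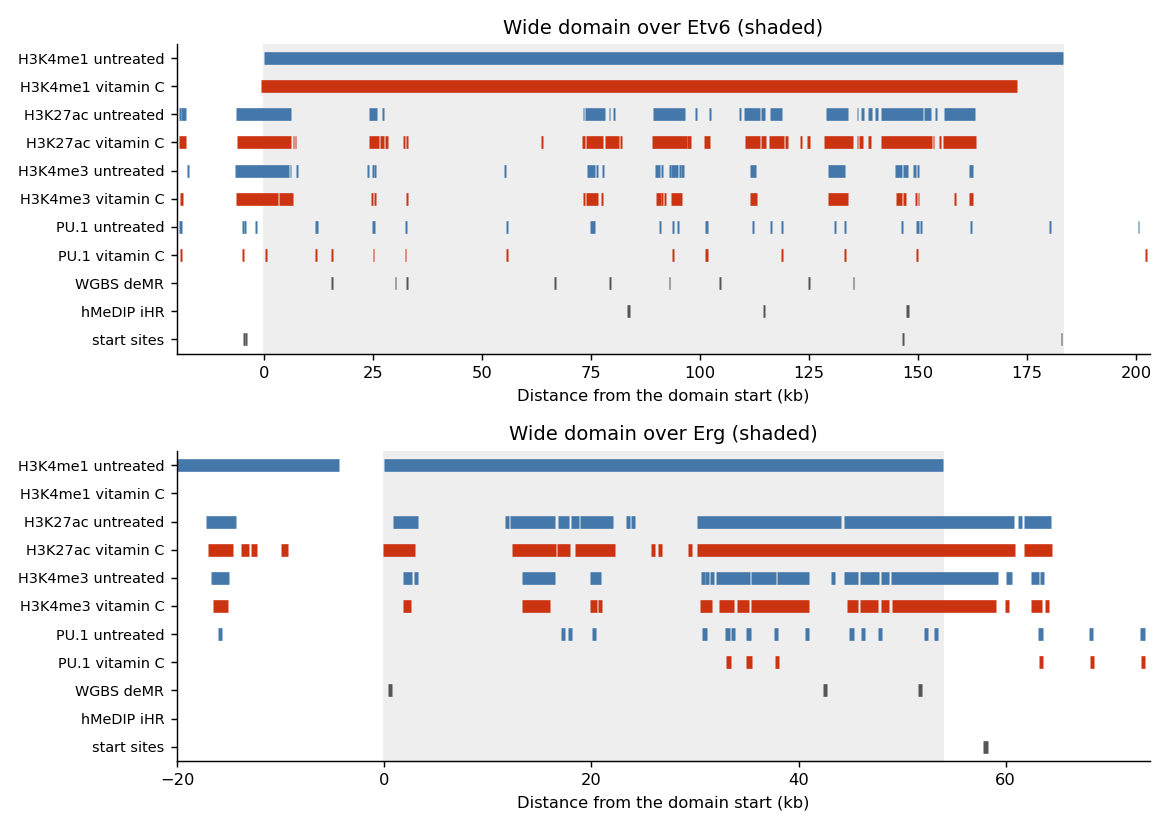
Peaks and regions over the wide domains of Etv6 (top) and Erg (bottom), by distance in kb from the start of the domain (shaded), with untreated lists in blue, vitamin C lists in red, and region lists and start sites in grey. Vitamin C H3K4me1 covers 94.3% of the Etv6 domain and 0% of the Erg domain, while H3K27ac peaks stand in both libraries at both.

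Over Etv6, H3K27ac covered 30.2% of the domain untreated and 37.4% with vitamin C, and over Erg 66.9% and 68.9%. Etv6 was at 90.6 RPKM untreated and 90.1 with vitamin C, and Erg at 43.9 and 38.4. The Etv6 domain was covered over 94.3% and the Erg domain not at all, while the RPKM of each gene stayed within 2-fold.

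Runx1, the core-binding factor of blood development, gave short lists of 3908 peaks untreated and 6250 with vitamin C. The domains overlapped 404 and 467 of them, or 6.30 and 7.29 per Mb. Of the untreated ones in domains 48.8% (95% interval 43.8 to 53.8%) were kept, against 72.4% (69.2 to 75.4%) in narrower peaks. Their scores were lower: 7.67% were above the 75th percentile of the list, against 24.2% in narrower peaks. The part of the scores in this difference was not tested.

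Methylation regions lay in 1481 domains (42.9%). The lists come from the authors as positions without values. Their thresholds and the libraries compared are not stated by the sources at hand, and the names deMR, iMR and iHR are used as deposited. The WGBS deMR list, attached to vitamin C cells, had the most: 1126 of its 6496 regions (17.3%) lay in 817 domains. The hMeDIP iHR list, attached to vitamin C cells, had 808 of 7829 (10.3%) in 639 domains. The MeDIP deMR list had 351 of 3789 (9.26%) and the mutant MeDIP list 243 of 4182 (5.81%). The WGBS iMR list had 99 of 8374 (1.18%) and the MeDIP iMR list 66 of 4564 (1.45%).

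Per Mb, the deMR lists were denser in wide domains than in narrower peaks and the iMR lists sparser. The WGBS deMR list had 17.6 regions per Mb in domains and 15.0 in narrower peaks, and the MeDIP deMR list 5.48 and 4.81. The WGBS iMR list had 1.54 and 3.26, and the MeDIP iMR list 1.03 and 1.73. The hMeDIP iHR list had 12.6 and 11.4, and the mutant MeDIP list 3.79 and 4.47. An overlap of 1 bp counted, which adds regions at the edges and so raises the density of narrow peaks. WGBS deMR density was 20.9 per Mb in the 88 domains of 50 kb or more, and 55 of these 88 (62.5%) held such a region. Inside the domains 48.3% of WGBS deMR regions met an untreated H3K27ac peak and 17.2% an untreated PU.1 peak, and in narrower peaks 28.2% and 19.8%. The WGBS iMR regions met H3K27ac in 61.6% of cases and H3K4me3 in 63.6%.

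**Figure D4:**
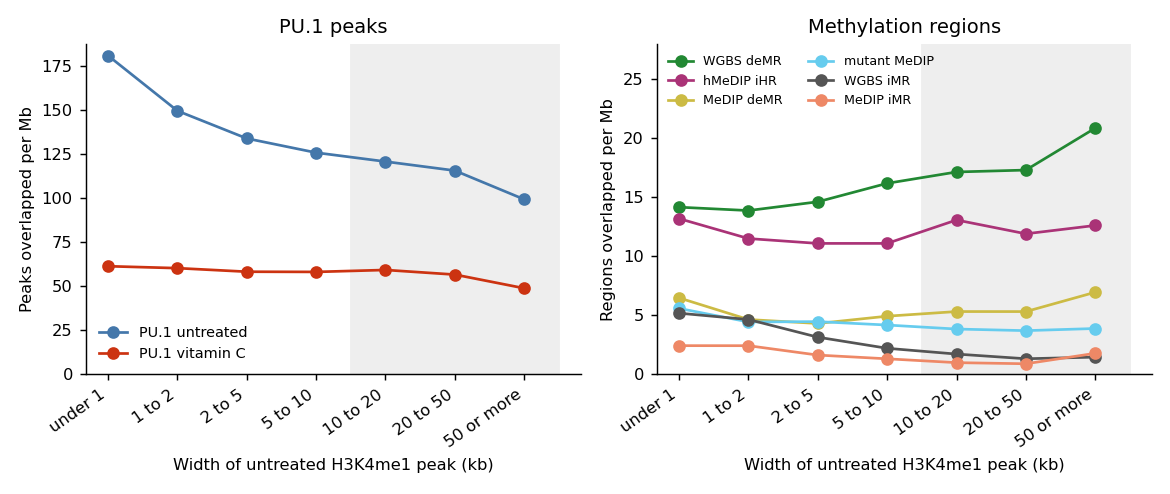
PU.1 peaks (left) and regions of the 6 methylation lists (right) overlapped per Mb of untreated H3K4me1 peak, by width class in kb, with the wide domains shaded. PU.1 is lower with vitamin C in every class, and the WGBS deMR list reaches 20.9 per Mb in the widest class while the WGBS iMR list stands at 1.46.

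Density also differed with coverage. WGBS deMR regions stood at 21.5 per Mb in domains covered over 90% or more, 14.6 in those covered over 50 to 90%, 13.6 in those covered over less and 17.5 in uncovered ones. The hMeDIP iHR list had 15.1, 10.1, 10.2 and 12.9 in the same order, and the MeDIP deMR list 7.20, 3.64, 4.55 and 5.33. H3K27ac covered 27.8, 20.2, 19.6 and 25.1% of length untreated in these classes, ranked as the WGBS deMR list was. H3K27ac and all 3 lists were highest in domains covered over 90% or more and next highest in uncovered ones. The part of H3K27ac in the densities was not tested.

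Most domains held regions of few lists: 975 of 1, 368 of 2, 119 of 3 and 19 of 4 lists. Domains over or nearest to these genes were among the 19: Cdk6 with 2 domains, Cebpe, Def6, Etv6, Fcgr2b, Ksr1, Med16, Ostf1, Pde4d, Rassf4, Rffl, Runx1, Specc1, Txn2, Vps13c, Wbp1l and Zfp516. Etv6 had 9 WGBS deMR, 5 MeDIP deMR, 5 mutant MeDIP and 3 hMeDIP iHR regions. The Runx1 domain (chr16:92607511-92693279, 99.6% covered) had 3 WGBS deMR, 5 MeDIP deMR, 4 hMeDIP iHR and 1 MeDIP iMR region. The domain named for Med16 also lies over the primary granule genes Prtn3 and Elane, whose promoter is printed above. Cebpe encodes the factor of late granulocyte maturation, and its domain (chr14:54701037-54717346, uncovered) had regions of 4 lists.

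The domains lay over the spans of 2315 protein-coding genes, and 2058 of these were measured, at 1 RPKM or more in 1 or both libraries. Measured genes under a domain made up 20.5% of 10016 measured genes with a position. Genes under domains were expressed at higher levels, with a median RPKM of 19.0 untreated, where genes not under a domain had 0.109. Among measured genes alone the medians were 22.9 and 13.8. The share of genes under a domain rose from 1.74% of genes below 0.1 RPKM to 31.5% of those at 200 RPKM or more. It also rose with the span of the gene, from 3.30% at up to 10 kb to 27.4% at 100 to 200 kb, and was 24.0% at 200 kb or more.

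The genes highest in mean RPKM under a domain were Cpa3, Calr, Ctsd, Cyp11a1, Pkm, Srgn, Cmtm7, Arhgdib, Rack1 and Gsn. Cpa3, which encodes the mast cell carboxypeptidase, was at 1863 RPKM untreated and 2488 with vitamin C, and its 37.9 kb domain had no vitamin C H3K4me1 peak. Srgn, which encodes the proteoglycan of secretory granules, was at 736 and 1057. Cyp11a1, which encodes the side-chain cleavage enzyme of steroid synthesis, was at 1271 and 1333, under a domain covered over 99.9% in which H3K27ac took 82.6% of the length untreated and 82.3% with vitamin C. Of these 10 genes, 6 had domains with no vitamin C H3K4me1 peak at all, where 674 of 2058 measured genes under a domain did. Each of the 10 stayed within 2-fold. Over all measured genes 2.39% were 2-fold or more higher and 1.91% lower, so 10 of 10 within 2-fold is near the background.

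With 1 bulk library per condition, fewer cells of a type and less RNA per cell cannot be told apart. Of the 2058 measured genes under a domain, 55 were at least 2-fold higher with vitamin C on the log2(RPKM + 0.5) scale (2.67%) and 57 at least 2-fold lower (2.77%). Over all measured genes 2.39% were higher and 1.91% lower, so these shares are near the background. The median log2 change was -0.03 under domains and -0.04 over all measured genes. The myeloid progenitor, mast cell and basophil marker levels given above moved between the same libraries, and their part in these changes was not tested.

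Genes were also counted by the coverage of their domains. Of 674 measured genes whose domains all had no vitamin C H3K4me1 peak, 16 were higher (2.37%) and 17 lower (2.52%), with a median log2 change of -0.04. Of 499 whose domains were all covered over 90% or more, 16 were higher (3.21%) and 11 lower (2.20%), with a median of -0.00. The 193 measured genes with 50 kb or more of domain had none higher (0%) and 3 lower (1.55%), where 2.39% and 1.91% of all measured genes were. Their median RPKM untreated was 27.5, against 15.5 over all measured genes, and the part of expression level in these counts was not tested.

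A difference appeared with the place of the start site. Of 375 measured genes with a start site inside a domain, 30 were higher (8.00%) and 13 lower (3.47%). Of the other 1683 under a domain 25 were higher (1.49%) and 44 lower (2.61%). Of 1228 measured genes with a start site in a narrower untreated H3K4me1 peak, 54 were higher (4.40%) and 36 lower (2.93%), and of 8413 with a start site in no untreated peak 155 (1.84%) and 142 (1.69%). Low genes pass a fold more easily, so the same count was made in classes of the mean RPKM of both libraries. Below 5 RPKM, 10 of 68 genes with a start site in a domain were higher (14.7%) and 7 lower (10.3%), against 74 (4.03%) and 99 (5.39%) of 1836 other genes. From 5 to 20 RPKM, 13 of 137 were higher (9.49%) and 5 lower (3.65%), against 71 (1.85%) and 59 (1.54%) of 3835. From 20 RPKM up, 7 of 170 were higher (4.12%) and 1 lower (0.588%), against 64 (1.61%) and 20 (0.504%) of 3970. In each class both shares were larger for genes with a start site in a domain, though the lower share from 20 RPKM up rests on 1 gene. These are counts of 1 library per condition, with no test.

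Some of the 30 higher and 13 lower genes with a start site in a domain are named here after their values were seen. Ccl3, which encodes a chemokine, went from 246 to 673 RPKM. Ccr2, which encodes a receptor for monocyte chemokines, went from 38.9 to 85.4, and Aqp9, a glycerol channel gene, from 18.2 to 71.4. Lgals3, which encodes galectin-3, went from 6.77 to 26.0, F13a1, the coagulation factor XIII A chain gene, from 4.64 to 20.9, and Alox5, the 5-lipoxygenase gene, from 0.683 to 5.23. Ctss, which encodes cathepsin S, stood just past the fold, at 2.75 and 6.02 RPKM, and was not past it with a pseudocount of 1 RPKM. Of the 30, 9 had the start site in a domain without any vitamin C H3K4me1 peak, among them Alox5, Lgals3, Hgfac and Tnfrsf9. Another 7 had it in a domain covered over 90% or more, among them Ccl6, Il1rl1 and Samd9l. These were 7.38% of 122 and 7.69% of 91 measured genes with a start site in such domains, near the 8.00% of all 375. The 13 lower genes were Ada, Btla, F7, Gchfr, Glipr2, Hist1h4b, Igf1, Il21r, Mgam, Stard10, Tfec, Tns3 and Wfdc17. Wfdc17, which encodes a small secreted protein of the WAP family, went from 262 to 91.6 RPKM, and Tfec, a transcription factor gene of macrophages, from 9.75 to 2.52.

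The 10 largest rises under a domain were Acod1, Osm, Lif, Nt5e, Ccl6, Spp1, Gdf15, Tnfrsf9, Ccl4 and Hgfac. Acod1, which encodes the enzyme that makes itaconate, went from 1.14 to 13.1 RPKM, a ratio of 11.5 (exact 95% interval 10.0 to 13.2, counting error only). Its 26.5 kb domain was covered over 88.5%, and H3K27ac took 23.6% of it untreated and 27.6% with vitamin C. The IL-6 family cytokine genes Osm and Lif went from 11.6 to 95.8 and from 6.23 to 47.4 RPKM, under domains covered over 94.6% and 67.1%. Tnfrsf9, which encodes the receptor 4-1BB, went from 16.8 to 89.2 RPKM in a domain with no vitamin C H3K4me1 peak and with 2 untreated PU.1 peaks and none with vitamin C. Hgfac, a serine protease gene, went from 1.91 to 11.8 in an uncovered domain with 3 PU.1 peaks in each library. Nt5e, which encodes the ectonucleotidase CD73, went from 4.64 to 35.1, and Gdf15, a stress cytokine gene, from 0.660 to 5.80.

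**Figure D5:**
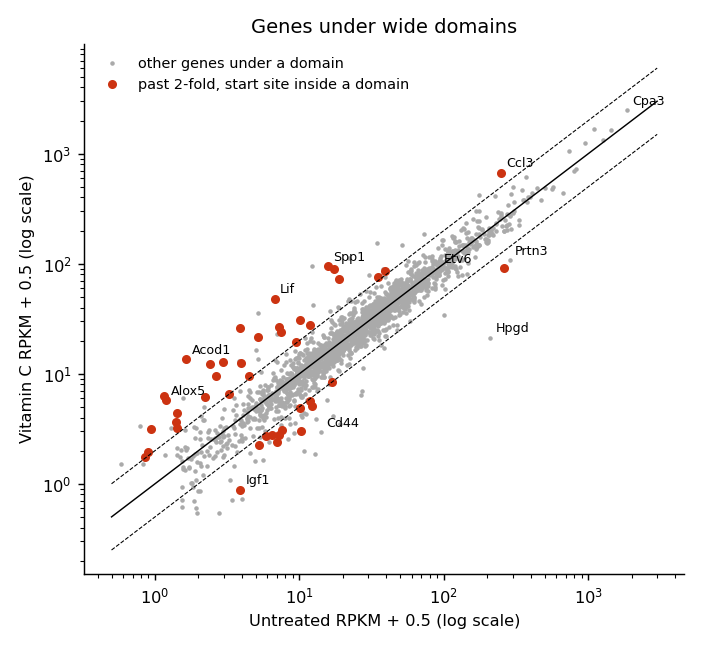
RPKM of the 2058 measured genes under a wide domain, untreated against vitamin C, each with 0.5 added and on log scales; red points are genes past 2-fold with a start site inside a domain, the solid line marks equal values and the dashed lines 2-fold. Among the red points 30 lie above the upper dashed line and 13 below the lower one.

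The 10 largest falls were Hpgd, Kcng2, Ank, Snx9, Chd7, Nrg2, Syne2, Cd44, Igf1 and Clstn1. Hpgd, which encodes the prostaglandin-degrading dehydrogenase, went from 208 to 20.8 RPKM, 9.98-fold lower, in an uncovered domain with H3K27ac over 31.0% of its length untreated and 27.5% with vitamin C. Cd44, the hyaluronan receptor gene, went from 13.5 to 2.44 under a domain covered over 75.6%. Igf1, a growth factor gene, went from 3.40 to 0.382 and was the only 1 of these 10 with its start site in a domain, one covered over 85.3%. Chd7, a chromatin remodeller gene, went from 10.2 to 1.47 under 3 domains with 6 PU.1 peaks untreated and 1 with vitamin C. Ank, which encodes a pyrophosphate transporter, went from 18.6 to 2.98 under 2 domains whose H3K27ac share went from 6.03% to 0%.

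Marks over the domains were compared by the call of the gene. In the 63 domains over higher genes, H3K27ac covered 33.3% of the length untreated and 35.8% with vitamin C, and in the 78 over lower genes 27.2% and 25.8%. H3K27ac covered more of the domain with vitamin C in 57.1% of the first and 35.9% of the second, where the share was 44.5% of 2425 domains over measured genes within 2-fold and 36.4% of 275 over genes too low to be measured. In this share the domains over lower genes were close to those over low genes. PU.1 went from 154 to 90.7 per Mb in the domains over higher genes, from 122 to 53.4 in those over lower genes, from 106 to 53.0 in those over genes within 2-fold and from 143 to 66.8 in those over low genes. H3K4me1 coverage was 53.1% and 42.5% of the length over higher and lower genes, and 49.1% over each of the other groups, and 20 of 63 and 29 of 78 domains were uncovered.

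Of the genes with the greatest length of domain, 5 are described. Auts2 had 10 domains of 370 kb in all, covered over 51.4%, and was at 3.37 RPKM untreated and 3.38 with vitamin C. Foxp1, a forkhead repressor gene, had 9 domains of 225 kb, covered over 44.8%, with 23 PU.1 peaks untreated and 13 with vitamin C, and was at 28.5 and 24.2 RPKM. Runx1 had 3 domains of 190 kb, covered over 98.0%, with 13 and 8 PU.1 peaks, 10 WGBS deMR and 9 hMeDIP iHR regions, and was at 52.5 and 66.3 RPKM. Tbxas1 had 4 domains of 166 kb with 26 and 15 PU.1 peaks, covered over 39.9%, at 27.9 and 30.0 RPKM. Bcl2, which encodes an inhibitor of cell death, had 4 domains of 170 kb covered over 12.4% with 15 and 5 PU.1 peaks, at 31.6 and 42.5 RPKM. Domain length and coverage varied widely in this group while the RPKM of each named gene stayed within 2-fold. Over all measured genes 2.39% were higher and 1.91% lower, so 5 of 5 within 2-fold is near the background.

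Myeloid and stem regulators lay under domains in 17 of 34 cases, and all 17 were measured. Of the 28 measured regulators this was 60.7%, where 20.5% of all measured genes were under a domain. The part of expression level and gene span in this difference was not tested, here or for the gene lists below. Coverage of their domains ran from 0 to 100%. It was 0% for Spi1, Cebpe, Myb, Erg and Fli1. It was 90% or more for Runx1, Lmo2, Etv6 and Nfe2. None of the 17 was past 2-fold, where 2.39% of all measured genes were higher and 1.91% lower, so a count of 0 in 17 is near the background. Their median log2 change was -0.33, that of all 28 measured regulators -0.30 and that of all measured genes -0.04. Spi1, the gene of PU.1 itself, was at 105 RPKM untreated and 83.0 with vitamin C, and its 16.1 kb domain held no PU.1 peak in either library and 2 hMeDIP iHR regions. Myb, a factor of immature blood cells, was at 200 and 155 with a 45.6 kb domain, and Lmo2, a bridging factor of blood stem cells, at 85.9 and 58.6 with 2 domains covered in full. Meis1, a partner of HOXA9, was at 18.3 and 10.0 with 2 domains of 83.2 kb covered over 15.1%. Ikzf1 and Ikzf2, which encode Ikaros and Helios, had 3 domains each, covered over 78.8% and 0.886%, and were at 26.9 and 21.4 and at 32.7 and 29.3 RPKM. The regulators past 2-fold were not under a domain: Gata1 and Egr1 higher, and Gfi1, Irf8 and Hoxa9 lower. HOXA9 had been used to immortalize these cells, so reads of an introduced copy and of the cells' own gene cannot be told apart. Hoxa9 was at 3062 RPKM untreated and 1487 with vitamin C, while Hoxa7 and Hoxa10 had 0 reads in both libraries.

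Receptors for growth factors and cytokines lay under domains in 8 of 18 cases, with coverage from 0 to 64.8%. Of the 15 measured receptors 7 were under a domain (46.7%), where 20.5% of all measured genes were. Il1rl1, which encodes the IL-33 receptor ST2 of mast cells, had 3 domains of 44.6 kb and went from 11.3 to 27.2 RPKM. Flt3, a receptor tyrosine kinase gene of early progenitors, had a domain covered over 4.50% and went from 6.97 to 2.95. Csf2rb, which encodes the common beta chain of the IL-3 and GM-CSF receptors, and Csf2rb2, which encodes the IL-3-specific beta chain of the mouse, were at 347 and 470 and at 160 and 253 RPKM, and their domains were covered over 44.3% and 0%. These genes are near-identical copies, so reads may be split between them. Cd34, the progenitor sialomucin gene, was at 299 and 498 with a 41.3 kb domain covered over 17.3%.

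Immune and granule genes lay under domains in 9 of 14 cases found. All 14 were measured, and this was 64.3%, where 20.5% of all measured genes were under a domain. The median of the 14 was 115 RPKM untreated, and 29.3% of genes at 50 to 200 RPKM were under a domain. Prtn3, which encodes proteinase 3, shared the 12.2 kb Elane domain and went from 285 to 107 RPKM, while Elane was at 47.5 and 38.6. H3K27ac in that domain took 46.9% of the length untreated and 60.7% with vitamin C, and its 2 PU.1 peaks were listed untreated only. Itgam, which encodes the integrin CD11b, had a 30.2 kb domain covered over 85.0% with 8 and 3 PU.1 peaks and was at 21.07 and 27.04 RPKM. Ptprc, which encodes CD45, had a domain covered over 99.97% and was at 65.1 and 61.2. Cd93, which encodes a C-type lectin receptor, had an uncovered domain with 3 PU.1 peaks untreated and none with vitamin C, and was at 219 and 211.

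The enzymes of H3K4 methylation and H3K27 acetylation were within 2-fold, as were 20 of 20 genes of that list. Over all measured genes 2.39% were higher and 1.91% lower, so 20 of 20 within 2-fold is near the background. The median log2 change was -0.17 over the list and -0.04 over all measured genes. Of the 20 genes, 8 lay under a domain, where 20.5% of all measured genes did. Kmt2c was at 8.70 RPKM untreated and 5.12 with vitamin C, and Kmt2d, which had no domain, at 27.6 and 20.6. Kdm1a, which encodes the H3K4 demethylase LSD1, was at 27.1 and 24.6 under an uncovered domain of 32.3 kb. Ep300 was at 31.6 and 30.2 under a domain of 23.3 kb covered over 45.6%, with no H3K27ac peak in either library. Domains over this list had little H3K27ac, from 0 to 17.1% untreated.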

How the data were processed

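ChIP-seq (H3K4me1, H3K4me3, H3K27ac, PU.1, Runx1), RNA-seq, MeDIP-seq, hMeDIP-seq and WGBS were deposited as 1 library per group. The submitters' processing notes name MACS2 2.1.0.2, Novoalign 3.02.08, BWA, Picard, CASAVA 1.8.2 and SAMtools 0.1.2, 0.1.8 and 0.1.16, and the build mm10, without role or order. The RNA-seq tables hold a read count and an RPKM value per Ensembl gene as the authors deposited them, with the counting tool not stated. In the histone lists the authors deposited for each peak a number of at most 1e-05 that is either a p-value or a q-value. Peaks of PU.1 and Runx1 were deposited with an undefined score. Peaks were listed per library, and the base of the coordinates was not stated: histone, PU.1, Runx1 and WGBS lists were read as 0-based and MeDIP and hMeDIP lists as 1-based. The untreated mutant samples carry the MeDIP deMR and the WGBS iMR list, and the vitamin C samples carry the other methylation lists except the mutant MeDIP list.

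Repeated intervals were removed (1159 and 259 for PU.1, 139 and 337 for Runx1, untreated and vitamin C). An overlap of 1 bp counted as inside, and coverage used the union of peaks. Of 22371 genes, 21611 had a symbol and 20226 a RefSeq GRCm38.p6 position. Changes are the log2 ratio, vitamin C over untreated, of RPKM with 0.5 added for genes at 1 RPKM or more in 1 or both libraries, called at 2-fold. Intervals are exact, at 95%, and cover counting error only. With 1 library per group no test was possible. The domains, gene lists and rules were chosen with earlier results of these data known. Named were the 10 widest, 5 most and 5 least covered and 5 PU.1-richest domains, those with 4 methylation lists (the rule took 3 or more, 138 domains, too many to name), the 10 highest, 10 most raised and 10 most lowered genes, list members, and others said to be chosen after their values were seen. Some items that the rule takes are not reported here. Overlap and fold code was tested on simulated data. Python 3.11.15, numpy 2.4.6, pandas 2.3.3, scipy 1.17.1 and matplotlib 3.10.9 were used.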

Additional observations from a re-analysis of the deposited data

How the results depend on the processing

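No paired analysis was possible because each group had 1 library. Of 80 comparisons of the main values with an alternative, 67 were labelled the same. That label took counts, densities and ratios within 1.5 times the main value, and shares within their exact interval over domains. It is a loose rule for counts: 5019 domains at 8000 bp and 2529 at 12000 bp were labelled the same as 3456. With a width limit of 8000 or 12000 bp, the share of domains with no vitamin C H3K4me1 peak was 38.4% or 33.6%, and the share covered over 90% or more was 26.997% or 31.4%. With only vitamin C H3K4me1 peaks at 1e-10 or less, coverage was 3.14% of length, 88.9% of domains had no peak and 1.22% were covered over 90% or more. By construction fewer peaks are counted there. With the stronger part of each PU.1 list by score, density was 66.9 per Mb untreated and 36.4 with vitamin C, and the ratio of the counts was 0.544 against 0.490. Genes with a start site inside a domain were 30 higher and 13 lower, and at 1.5-fold 147 were higher and 146 lower under a domain, which was 7.14% and 7.09% where 6.24% and 6.32% of all measured genes were. Leaving out chromosome X, an alternative chosen after seeing the data, gave values close to those reported. Of the named genes, Ctss at 0.90 with a pseudocount of 1 RPKM and at 0.997 with counts scaled by library totals was no longer past 2-fold. No gene past 2-fold changed direction, and Auts2, at 0.0019, stood at -0.0041 with counts scaled.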
